A study of Mus musculus with 5 samples.

Results

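The genes described here are 6 members of the ephrin-B system of mouse: the receptors Ephb2, Ephb3, Ephb4 and Ephb6 and the ligands Efnb1 and Efnb2. They were taken by symbol from the 32285 genes of the deposited feature tables, where each symbol had 1 row. Their messenger RNA was counted as unique molecular identifiers (UMIs) in single cells of the duodenum, jejunum, ileum, colon and rectum, with 1 library per segment and hence no replicate of any segment. The study is about Gnai1-expressing stromal cells and their bearing on goblet and Paneth cells. Living cells, which keep out the dye propidium iodide, had been sorted before capture on the 10x Genomics platform. The labels used here name the tissue of each library and give no strain, genotype, age, treatment or number of animals.

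Eph receptors are receptor tyrosine kinases, and ephrins are ligands anchored in the membrane of a neighbouring cell, so the pair signals at cell contacts and in both directions. In the intestinal crypt, EphB receptors are known as targets of WNT signalling that is strongest at the crypt base, whereas ephrin-B ligands are known to be higher in cells on their way out of the crypt. Contact between the opposed gradients is known to hold cells at their position along the crypt. Ephb4 and Efnb2 are also a classical receptor and ligand pair of venous, lymphatic and arterial endothelium.

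After filtering, 11922 of 16535 barcodes were kept, with 1829 to 3196 cells and 35107567 to 53918649 UMIs per library. Cells were clustered without any Eph or ephrin gene and named from markers, so that each name means a cell like that type. There were 1606 crypt-like, 1952 absorptive-like, 963 goblet-like, 125 enteroendocrine-like, 24 tuft-like, 36 Paneth-like, 551 stromal and 130 endothelial cells. No member was among the markers. Crypt-like cells fell into 1 cluster for the 3 small intestinal libraries, led by Olfm4, 1 for colon, led by Sult1a1, and 1 for rectum, led by Wfdc2, so crypt cluster and segment cannot be told apart along the intestine. Of the endothelial cells, 115 were lymphatic-like and 15 blood-like. A barcode occurred in 2 libraries 30 times before filtering and 15 times among the kept cells.

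The 6 genes lie on different chromosomes of GRCm38.p6 in RefSeq: Ephb2 on chr4:136647536-136836326, Ephb3 on chr16:21204620-21223309, Ephb4 on chr5:137350109-137374522, Ephb6 on chr6:41603834-41620509, Efnb1 on chrX:99136061-99149022 and Efnb2 on chr8:8617235-8661242. The 120 bases before the start that the RefSeq promoter table gives for 4 members are shown because the 3 receptors shared one pattern in the epithelium and Efnb2 had the opposite one. For Ephb2 and Ephb3 that start lies inside the gene interval above, so the stretch does too, and for Ephb4 and Efnb2 the stretch ends where the interval begins. CG dinucleotides are in capitals.
Ephb2 (chr4:136836013-136836132, minus strand): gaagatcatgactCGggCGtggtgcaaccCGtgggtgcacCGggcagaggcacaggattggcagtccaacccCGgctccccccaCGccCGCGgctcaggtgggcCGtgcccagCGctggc
Ephb3 (chr16:21204675-21204794, plus strand): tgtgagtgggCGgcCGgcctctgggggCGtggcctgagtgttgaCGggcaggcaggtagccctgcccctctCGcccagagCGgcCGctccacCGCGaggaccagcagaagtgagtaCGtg
Ephb4 (chr5:137349989-137350108, plus strand): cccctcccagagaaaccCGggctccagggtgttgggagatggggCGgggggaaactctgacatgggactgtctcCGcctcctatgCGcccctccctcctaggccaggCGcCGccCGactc
Efnb2 (chr8:8661243-8661362, minus strand): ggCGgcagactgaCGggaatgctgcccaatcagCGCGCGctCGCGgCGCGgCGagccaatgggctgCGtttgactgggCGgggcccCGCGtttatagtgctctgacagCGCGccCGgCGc
Over the 250 bases before the start, Ephb2 held 20 CG dinucleotides, Ephb3 16, Ephb4 12 and Efnb2 27, and the median of 27025 RefSeq promoters was 6. At least as many as in Ephb2, Ephb3, Ephb4 and Efnb2 were found in 17.7%, 25.6%, 33.8% and 8.16% of these promoters. The core of TCF and LEF sites, CTTTG or its reverse complement CAAAG, stood in 48.8% of the promoters and in 0 of the 6 members within these 250 bases.

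Levels are CPM, the UMIs of a gene in the summed cells of a class scaled to a common total, and they were compared between classes and libraries, not between genes. Intervals are 95% exact Poisson intervals, which cover counting error only, as do the floors of 3 counts given where nothing was counted. Values by segment run from duodenum to rectum. Where groups of libraries are said not to overlap, the share of all genes with such a gap was not counted. A gap alone therefore does not set a gene apart.

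The receptor Ephb2, whose loss together with Ephb3 is known to displace Paneth cells, was abundant in crypt-like cells of every segment. Its level there was 42.9, 52.9, 58.4, 49.2 and 35.0 CPM. In absorptive-like cells it was 2.82, 2.06, 3.27, 8.93 and 0 CPM, and the rectal value rests on 57 cells in which 3 UMIs would have given 5.88 CPM. The highest absorptive-like library lay below the lowest crypt-like library. At least 1 Ephb2 UMI was found in 65.5% of crypt-like cells and in 7.94% of absorptive-like cells, at median depths of 35196.5 and 30843 UMIs. Plasma-like cells, which should lack the gene and had a median of 26823.5 UMIs, had 1.18%. Thinned to 1000 UMIs per cell, with shallower cells left out, the shares were 4.64% of 1552 crypt-like, 0.321% of 1869 absorptive-like and 0% of 504 plasma-like cells.

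Ephb3, the receptor known for the placement of Paneth cells, reached 9.40, 8.95, 13.5, 15.8 and 14.2 CPM in crypt-like cells. Absorptive-like cells had 0.188, 0.117, 0.177, 1.28 and 0 CPM, from 18 UMIs in all. No absorptive-like library reached any crypt-like one, the rectal floor of 5.88 CPM included.

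Ephb4, the receptor best known from veins, had 37.7, 51.9, 45.8, 38.0 and 28.9 CPM in crypt-like cells. In absorptive-like cells it had 2.82, 2.53, 3.72, 11.8 and 0 CPM. As with Ephb2, colon was the highest absorptive-like library and still lay below every crypt-like one. The cell-wise shares were 62.2% of crypt-like, 9.48% of absorptive-like and 1.18% of plasma-like cells.

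The ligands had the reverse order. Efnb2 had 17.9, 15.5, 12.7, 19.3 and 21.0 CPM in crypt-like cells and 50.9, 53.1, 64.4, 80.7 and 123 CPM in absorptive-like cells, and the groups did not overlap. Efnb1, a ligand encoded on the X chromosome, had 60.0, 66.1, 47.4, 77.5 and 75.9 CPM in crypt-like cells and 58.8, 85.8, 104, 92.9 and 131 CPM in absorptive-like cells. Those 2 ranges overlapped, with duodenum the library in which the crypt-like level was not the lower one.

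**Figure D1:**
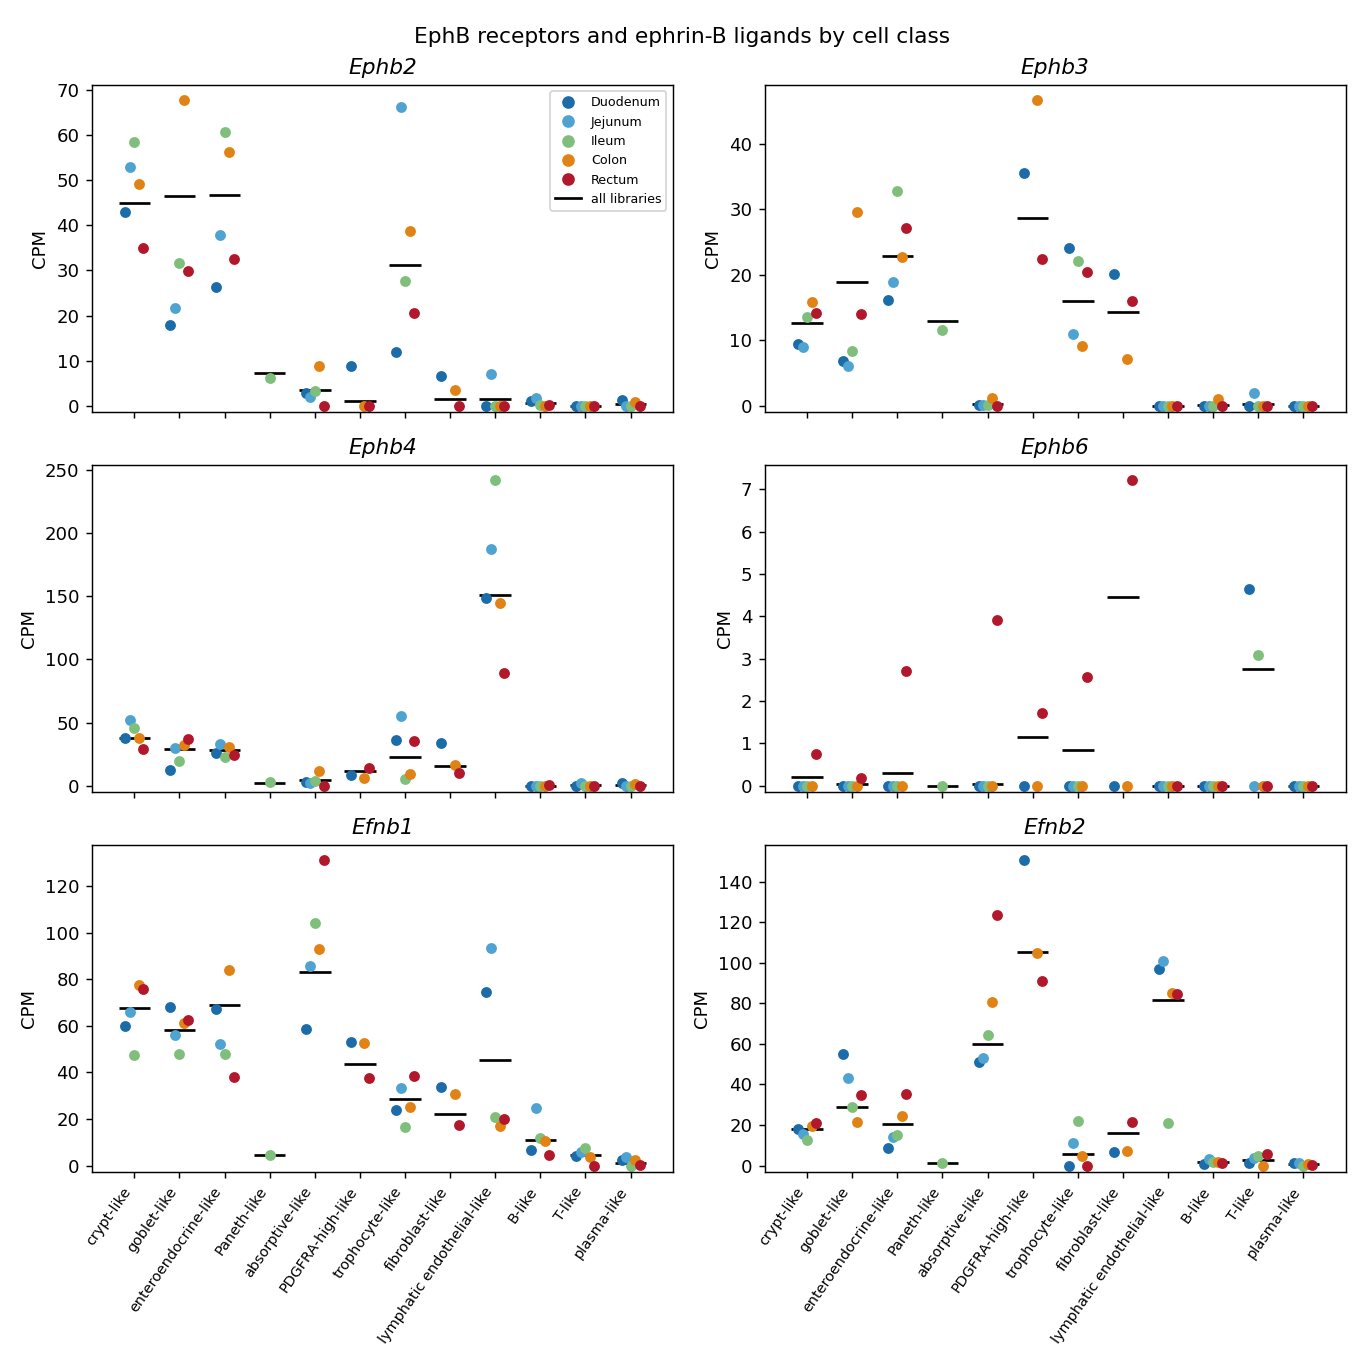
Levels of the 6 genes (CPM, linear axes) in 12 cell classes. Points are libraries with at least 10 cells of the class, coloured by segment, and black bars are the 5 libraries together. Paneth-like levels are plotted with the Paneth markers in the total. Of the 5 epithelial classes plotted, the absorptive-like one is lowest for Ephb2 (3.63 CPM) and Ephb3 (0.337 CPM) and highest for Efnb1 (83.2 CPM) and Efnb2 (60.0 CPM).

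The contrast of crypt-like with absorptive-like cells was tested within libraries by the edgeR quasi-likelihood test on summed counts, with Benjamini-Hochberg adjustment over 11718 genes. Of the 5 members that passed the filter on low counts, the 3 receptors were higher and both ligands lower in crypt-like cells. Ephb3, with 18 UMIs in absorptive-like cells, passed that filter through its crypt-like sums. Of all genes tested, 35.6% were higher and 24.6% lower, so a call alone is common in this contrast. Ephb2 was higher by 3.58 on the log2 scale (SE 0.40, adjusted p = 0.000372), in 5 of 5 libraries. Ephb3 was higher by 4.86 (SE 0.47, adjusted p = 0.000229) and Ephb4 by 3.14 (SE 0.46, adjusted p = 0.0011), each in 5 of 5 libraries. These are 11.9-fold, 29.0-fold and 8.84-fold differences. Efnb2 differed by -2.29 (SE 0.16, adjusted p = 8.5e-05), being lower in crypt-like cells of 5 of 5 libraries, and Efnb1 by -0.75 (SE 0.17, adjusted p = 0.00766), in 4 of 5 libraries. The test gives the spread between segments, since each library is a segment of its own, and nothing says that the libraries came from separate animals. Each of the 5 calls stood without any one library and with DESeq2, with adjusted p up to 0.0319.

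Goblet-like cells, the mucus-secreting class, did not share the low receptor level of absorptive-like cells. Ephb2 had 17.9, 21.6, 31.7, 67.7 and 29.95 CPM there, Ephb3 had 6.80, 6.08, 8.40, 29.5 and 14.0 CPM, and Ephb4 had 12.8, 29.7, 19.99, 32.7 and 36.8 CPM. Colon was the highest goblet-like library for Ephb2 and Ephb3 and exceeded the colonic crypt-like level for both. Against goblet-like cells, the crypt-like difference in log2 was 0.34 for Ephb2 (SE 0.23, adjusted p = 0.267), -0.15 for Ephb3 (SE 0.23, adjusted p = 0.626, with crypt-like cells higher in 4 of 5 libraries and lower in colon), 0.38 for Ephb4 (SE 0.22, adjusted p = 0.192) and -0.09 for Efnb1 (SE 0.15, adjusted p = 0.661), by the same edgeR test. Efnb2 alone of the 5 passed, at -1.23 (SE 0.26, adjusted p = 0.00962) and lower in crypt-like cells of 5 of 5 libraries. In this contrast 20% of 11290 genes were higher and 20.1% lower. Without colon Ephb2 passed at 0.60 (adjusted p = 0.0389), and without rectum Ephb4 passed at 0.61 (adjusted p = 0.0293).

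Goblet-like cells also carried more of the markers of crypt stem cells and of division than absorptive-like cells did. The summed level of 9 crypt stem markers was 402, 955, 797, 799 and 828 CPM in goblet-like cells and 27.0 to 112 CPM in absorptive-like cells. In crypt-like cells it was 3078, 3874, 5362, 931 and 601 CPM, so that in rectum the crypt-like cells had less of these markers than the goblet-like cells, against the name of the class, and in colon little more. For 11 markers of division it was 947 to 1444 CPM in goblet-like, 137 to 176 CPM in absorptive-like and 1868 to 3896 CPM in crypt-like cells, highest in the crypt-like class of every library, and no marker of either list was at 0 in any of the 3 classes over all libraries. Their part in the receptor levels of goblet-like cells was not tested.

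Within a class the clusters differed. Among colonic goblet-like cells, the cluster led by Plet1 (97 cells) had 46.0 CPM of Ephb3 and 9.83 CPM of Efnb2, and the one led by Reg4 (292 cells) had 25.2 and 24.8 CPM. The mainly ileal absorptive-like cluster led by Reg3g had 7.93 CPM of Ephb2 and 79.3 CPM of Efnb2, and the one led by Plb1 and Fabp6 had 0.149 and 53.8 CPM. An epithelial cluster of 209 duodenal and jejunal cells, led by Rbp7 and Car4 and left unnamed, lay between crypt-like and absorptive-like cells for the receptors, with 12.1 CPM of Ephb2, 1.06 CPM of Ephb3 and 15.8 CPM of Ephb4, and had 101 CPM of Efnb1 and 86.6 CPM of Efnb2.

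The smaller secretory classes are given by their levels over all libraries. Enteroendocrine-like cells, the hormone-producing class, had 46.6 CPM of Ephb2 (39.5 to 54.6), 22.8 CPM of Ephb3 (17.9 to 28.7) and 20.7 CPM of Efnb2 (16.0 to 26.3). Tuft-like cells, a chemosensory class, had 71.0 CPM of Ephb2 from 22 UMIs (44.5 to 107). Paneth-like cells, which lie at the crypt base and came from the small intestine, need another scale, because 10 Paneth markers made up 70.0% of their UMIs and 0.0204% of those of crypt-like cells. With these markers left out of the total, a step added after seeing the data, Paneth-like cells had 43.0 CPM of Ephb3 (30.6 to 58.8) and crypt-like cells 12.7 CPM (11.8 to 13.6). With the markers in the total the Paneth-like level was 12.9 CPM. On the scale without markers, Paneth-like cells had 24.2 CPM of Ephb2 (15.2 to 36.7), 8.82 CPM of Ephb4 (3.81 to 17.4), 15.4 CPM of Efnb1 (8.44 to 25.9) and 4.41 CPM of Efnb2 (1.20 to 11.3), each with an interval below that of crypt-like cells on either scale. With 36 such cells, 24 of them ileal, no test was made.

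When absorptive-like, goblet-like, enteroendocrine-like and tuft-like cells were pooled as differentiated epithelium, the receptor contrast was smaller. By the edgeR test Ephb4 was higher in crypt-like cells by 1.53 in log2 (SE 0.50, adjusted p = 0.0483), in 4 of 5 libraries. Efnb2 was lower, at -1.73 (SE 0.24, adjusted p = 0.00858), in 5 of 5. Ephb2 differed by 1.54 (adjusted p = 0.0526), Ephb3 by 1.24 (adjusted p = 0.105) and Efnb1 by -0.42 (adjusted p = 0.153), none of which passed. Of 12516 genes, 22.7% were higher and 21.3% lower. The Ephb4 call was lost in 8 of 21 other settings, among them those without duodenum, jejunum, ileum or colon (adjusted p 0.145, 0.129, 0.144 and 0.0545). Efnb2 kept its call in all 21.

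**Figure D2:**
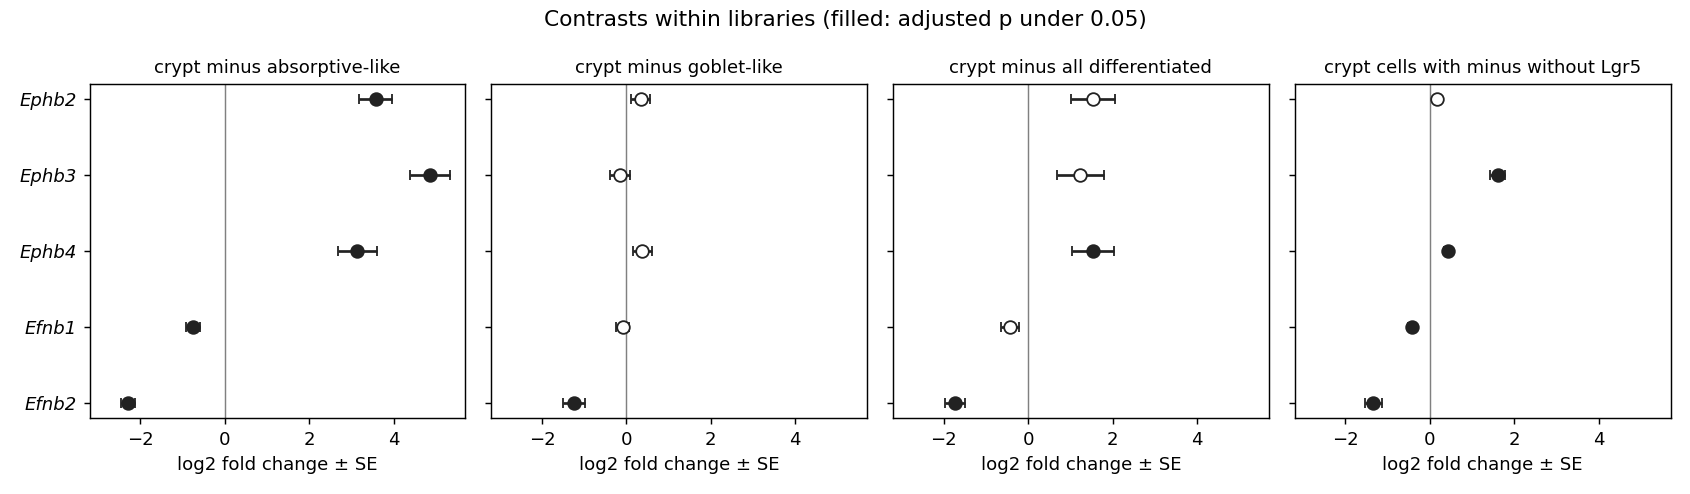
Log2 fold changes of 5 members with standard errors in 4 contrasts within libraries, each panel on the same axis. Filled points have an adjusted p under 0.05. Receptors lie to the right and ligands to the left of 0 against absorptive-like cells, and Efnb2 lies left of 0 in every panel (-2.29, -1.23, -1.73 and -1.34).

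The pooled contrast was not of one size along the intestine. Differentiated cells had 5.34, 4.20, 15.2, 44.4 and 27.9 CPM of Ephb2, 1.28, 0.798, 3.92, 18.3 and 14.0 CPM of Ephb3 and 4.78, 5.10, 10.2, 24.6 and 33.1 CPM of Ephb4. In both large intestinal libraries they were above every small intestinal one for each of these receptors. The edgeR test of the interaction gave a contrast that was lower in large than in small intestine by 2.22 in log2 for Ephb2 (-2.22, adjusted p = 0.0206), 2.33 for Ephb3 (-2.33, adjusted p = 0.0201) and 2.21 for Ephb4 (-2.21, adjusted p = 0.0138). For Efnb2 it was 0.99 (adjusted p = 0.0293) and for Efnb1 0.87 (adjusted p = 0.0504). Of 12516 genes, 12.9% had a larger and 9.88% a smaller value in large intestine. The make-up of the differentiated cells moved with it: goblet-like cells were 8.23%, 5.75%, 29.3%, 55.4% and 76.5% of them. These are shares of the kept cells and depend on the filters. With every deposited barcode kept, absorptive-like cells numbered 4900 in place of 1952, and goblet-like cells 1038 in place of 963. On the crypt-like side the summed crypt stem markers moved too. They were at least 3078 CPM in the small intestinal libraries and 931 and 601 CPM in colon and rectum. All differentiated cells of colon and rectum had 507 and 743 CPM. The marker list holds Olfm4 and Smoc2, both among the leading genes of the small intestinal crypt-like cluster. The sum was not split by gene, so it does not by itself rank the segments in crypt identity. The part of the make-up or of the crypt-like side in the interaction was not tested.

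Against absorptive-like cells alone, no member passed the interaction test. It was -1.46 for Ephb2 (adjusted p = 0.133), -2.11 for Ephb3 (adjusted p = 0.0998), -1.83 for Ephb4 (adjusted p = 0.0911) and -0.28 for Efnb2 (adjusted p = 0.563). The 57 rectal absorptive-like cells had 0 CPM of these 3 receptors, so in large intestine the receptor values rest mainly on colon. The missed threshold does not show that the receptor interaction was absent. Against goblet-like cells alone the interaction was -0.95, -0.78 and -0.92 for the receptors (adjusted p 0.127, 0.321 and 0.114) and 1.26 for Efnb2 (adjusted p = 0.0391). In the pooled contrast, the 4 calls were lost without duodenum, without jejunum and without rectum (adjusted p 0.0593 to 0.134). Without colon those of Ephb2 and Ephb3 were lost (adjusted p 0.0560 and 0.0545).

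**Figure D3:**
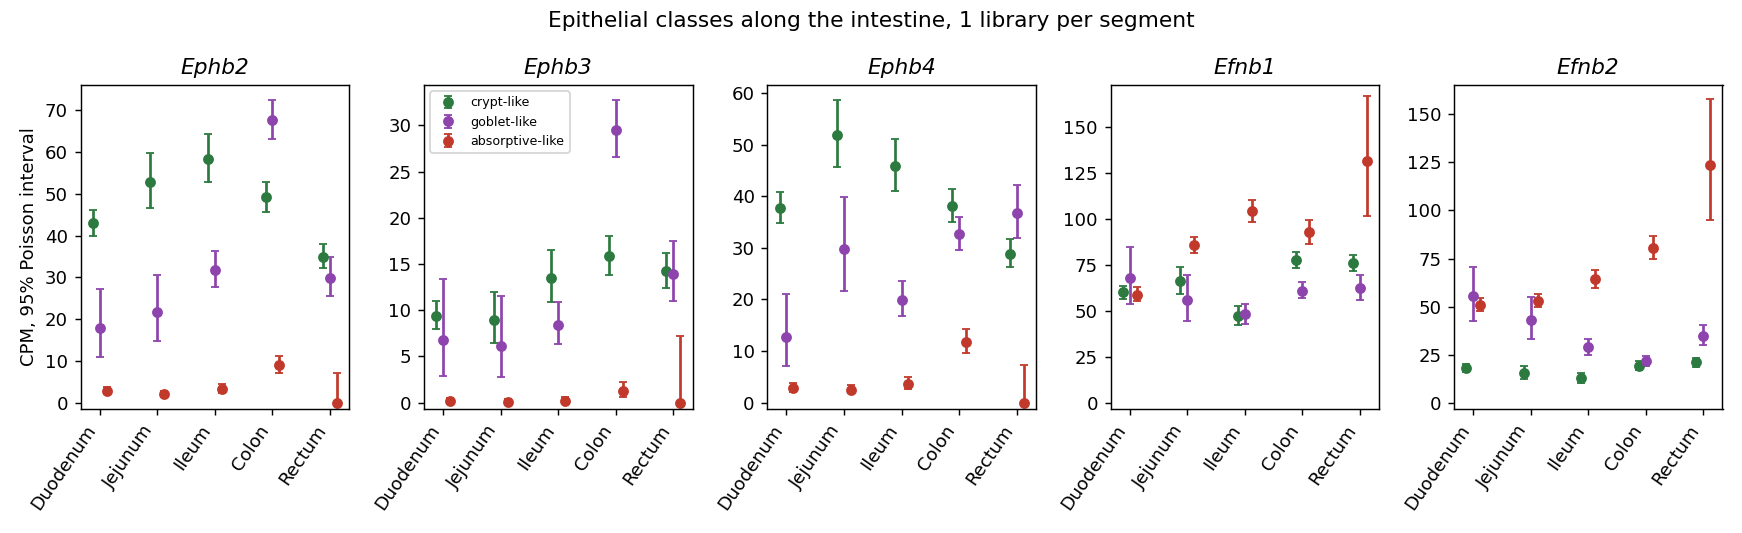
Levels of 5 members (CPM, linear axes) in crypt-like, goblet-like and absorptive-like cells of each segment, with 95% exact Poisson intervals. Receptors are lowest in absorptive-like cells of every segment, and Efnb2 in this class is 50.9 CPM in duodenum and 123 CPM in rectum.

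Between small and large intestine no test was made, and a rule of size was used: the lowest library of one side had to be at least 2-fold above the highest of the other, with at least 50 UMIs in the class. No member met it in crypt-like, absorptive-like or goblet-like cells. Among crypt-like cells, 2.49% of genes met it with the small intestine on top and 3.72% with the large. The shares were 5.29% and 5.65% in absorptive-like cells, and 2.13% and 2.90% in goblet-like cells. The closest approach was Ephb3 in goblet-like cells, whose lower large intestinal library (14.0 CPM) was 1.66-fold above the highest small intestinal one (8.40 CPM). In crypt-like cells the order for Ephb2 was ileum, jejunum, colon, duodenum and rectum, and only rectum had an interval clear of all the others.

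Lgr5, a WNT target and the standard marker of crypt stem cells, divided the crypt-like cells further. Crypt-like cells with a Lgr5 UMI were paired by total UMIs with cells of the same library without one, giving 109, 35, 87, 102 and 64 pairs. Median depths were close in 4 libraries and differed in ileum, with 34041 UMIs in cells with Lgr5 against 38226. Ephb3 had 19.99, 16.1, 20.9, 26.6 and 32.4 CPM in cells with Lgr5 and 3.996, 9.15, 6.68, 10.3 and 11.1 CPM in cells without, and the groups did not overlap. Ephb2 had 49.7, 53.5, 59.5, 54.0 and 42.6 CPM with Lgr5 and 39.0, 50.3, 55.5, 50.6 and 37.0 CPM without, which overlapped. Efnb2 had 5.71, 8.41, 5.38, 16.6 and 9.10 CPM with Lgr5 and 21.7, 18.3, 20.6, 27.8 and 20.7 CPM without, again with no overlap.

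By the edgeR test Ephb3 was higher in cells with Lgr5 by 1.60 in log2 (SE 0.18, adjusted p = 0.00056) and Ephb4 by 0.43 (SE 0.09, adjusted p = 0.00735). Efnb2 differed by -1.34 (SE 0.19, adjusted p = 0.00162) and Efnb1 by -0.43 (SE 0.09, adjusted p = 0.00836), both lower with Lgr5. Each had the same sign in 5 of 5 libraries. Ephb2 differed by 0.18 (SE 0.08, adjusted p = 0.155), also higher in 5 of 5. Of 10330 genes, 9.42% were higher and 11.1% lower. Ephb3 kept its call in all 18 other settings. Ephb4, Efnb1 and Efnb2 lost theirs where at most 10% mitochondrial UMIs were allowed, at Leiden resolution 2 and with each library clustered on its own, settings that left 650, 1090 and 1022 crypt-like cells, and Ephb4 also with DESeq2.

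Members were often found in the same cell. Of the 480 crypt-like cells with an Ephb3 UMI, 75.8% also had Ephb2, which was in 65.5% of all crypt-like cells. Ephb2 and its ligand gene Efnb1 were both found in 54.2% of crypt-like, 37.5% of goblet-like and 7.17% of absorptive-like cells. Efnb1 and Efnb2 were both found in 55.7% of absorptive-like and 31.4% of crypt-like cells. Cells with more UMIs hold more of every gene, and these shares were not corrected for depth.

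In endothelium Ephb4 was the receptor that stood out. Endothelial cells had 155, 171, 235, 154 and 85.4 CPM and stromal cells 23.2, 56.7, 12.5, 11.3 and 16.8 CPM, with no overlap. The edgeR difference was 2.71 in log2 (SE 0.31, adjusted p = 2.65e-06), higher in 5 of 5 libraries, and the call stood in all 16 other settings. Of 3411 genes tested, 20.5% were higher and 23.2% lower in endothelium. At least 1 Ephb4 UMI was found in 53.9% of lymphatic-like cells, whose median depth was 5951 UMIs.

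Ephb4 was the only member to pass the filter on low counts in this contrast. It passed through its endothelial sums, where it is high, and most stromal sums were far lower. Among the other settings was a fit without that filter, in which the Ephb4 call stood. Efnb2 had 81.5 CPM (61.6 to 106) in lymphatic-like and 243 CPM from 17 UMIs (141 to 388) in blood-like endothelial cells. Without the filter Efnb2 was higher in endothelium by 1.39 (adjusted p = 1.6e-05), Ephb2 and Ephb3 were lower, at -3.73 (adjusted p = 0.00489) and -6.14 (adjusted p = 7.07e-05), and Efnb1 differed by 0.66 (adjusted p = 0.214). Ephb3 had 0 UMIs in the 130 endothelial cells, and Ephb2 had 1, so those fitted values depend on the prior count. Of the related genes, Ephb1, another EphB receptor, had 32.0 CPM and Efnb3, the remaining ephrin-B ligand, 33.5 CPM in lymphatic-like cells. In crypt-like cells Ephb1 had 1 UMI and Efnb3 0.858 CPM.

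Stromal classes carried different members. Trophocyte-like cells, submucosal fibroblasts that supply WNT agonists to the crypt base, had 31.2 CPM of Ephb2 (22.0 to 43.0), with 12.0, 66.2, 27.6, 38.6 and 20.5 CPM by segment. The segment values rest on few UMIs, from 10 such cells each in duodenum and jejunum. PDGFRA-high-like cells, the subepithelial fibroblasts next to the epithelium, had 1.14 CPM (0.0290 to 6.37) and fibroblast-like cells 1.48 CPM (0.306 to 4.33). An Ephb2 UMI was found in 32 of 142 trophocyte-like cells, 1 of 110 PDGFRA-high-like and 3 of 250 fibroblast-like cells, at median depths of 8807.5, 8062 and 8407.5 UMIs. Summed over 6 markers, epithelial transcripts were at 95.4, 110 and 76.1 CPM in these classes, and 9 crypt stem markers, some of which stromal cells also express, at 477, 146 and 101 CPM. Their part in the Ephb2 level was not tested.

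Efnb2 had the opposite order among these fibroblasts. PDGFRA-high-like cells had 105 CPM (84.8 to 129) and trophocyte-like cells 5.91 CPM (2.38 to 12.2). In the 3 libraries with at least 10 PDGFRA-high-like cells, Efnb2 was at 151, 105 and 91.1 CPM (duodenum, colon and rectum), and in trophocyte-like cells of colon at 4.55 CPM. Trophocyte-like cells of duodenum and rectum had no Efnb2 UMI, where 3 counts would have given 36.1 and 7.69 CPM. Most trophocyte-like Efnb2 UMIs came from the 10 jejunal and 18 ileal cells, whose level as 1 group was above that of colon. An Efnb2 UMI was found in 4 of 142 trophocyte-like cells. Jejunum and ileum had 0 and 1 PDGFRA-high-like cells, so the order of the classes could not be compared there. No test was made between these classes. Ephb3 was at 28.6 CPM (18.5 to 42.2) in PDGFRA-high-like and 16.0 CPM (9.65 to 25.0) in trophocyte-like cells, with overlapping intervals. Since most stromal cells came from colon and rectum, these levels rest mainly on those libraries, apart from the Efnb2 UMIs of trophocyte-like cells.

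**Figure D4:**
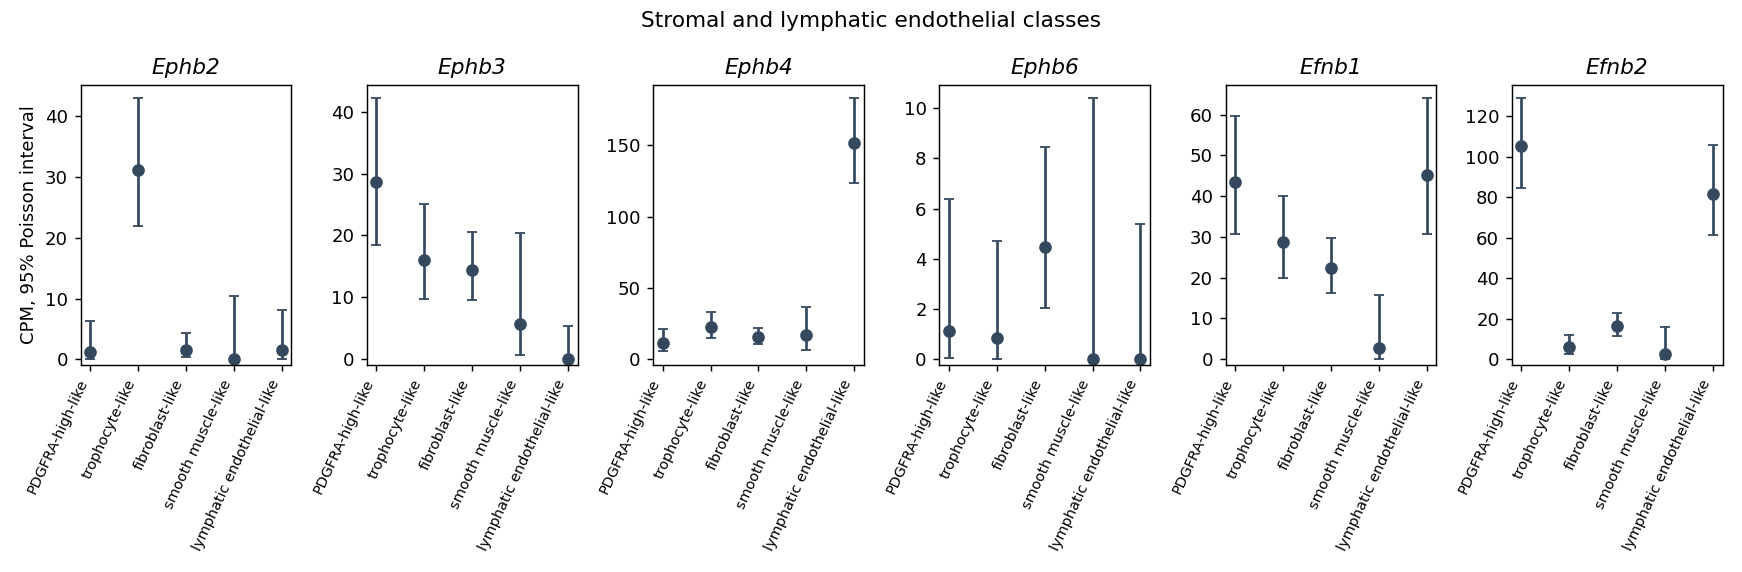
Levels of the 6 genes (CPM, linear axes) over all libraries in 4 stromal classes and in lymphatic-like endothelial cells, with 95% exact Poisson intervals. Ephb2 is highest in trophocyte-like cells (31.2 CPM), Efnb2 in PDGFRA-high-like cells (105 CPM) and Ephb4 in lymphatic-like cells (151 CPM).

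As a single class, stroma differed from epithelium in Efnb1. Stromal cells had 33.5, 32.4, 16.7, 30.6 and 24.1 CPM and epithelial cells 64.5, 81.2, 66.7, 75.9 and 73.2 CPM, with no overlap. These epithelial levels include Paneth-like and unnamed epithelial cells. The epithelial side of the test held crypt-like and differentiated cells only. The edgeR difference was -1.73 in log2 (SE 0.21, adjusted p = 0.00021), lower in stroma in 5 of 5 libraries. Ephb2 differed by -1.58 (adjusted p = 0.0551), Ephb3 by 0.59 (adjusted p = 0.289), Ephb4 by -0.64 (adjusted p = 0.223) and Efnb2 by -0.55 (adjusted p = 0.153), and none of these passed. Of 12901 genes, 24.3% were higher and 29.1% lower in stroma. Stromal sums held fewer UMIs, from 15 to 286 cells per library.

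Ephb6, a receptor whose kinase domain is inactive, was counted rarely, with 37 UMIs in the kept cells. Crypt-like cells had 12 of these, all from rectum (0.755 CPM there). Fibroblast-like cells had 9, also from rectum (7.22 CPM), and T-like cells, in which the gene is known, had 9, from duodenum and ileum. No contrast tested it after the filter on low counts.

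The other genes of the system were described from lists. Of 16 further Eph and ephrin genes, 7 could be tested between crypt-like and absorptive-like cells. The receptor Epha4 and the ligands Efna4 and Efna2 were higher in crypt-like cells, by 5.34, 2.88 and 4.22 in log2 (adjusted p = 0.000151, 0.000555 and 0.00214 by edgeR). The receptor Epha1 and the ligand Efna1 were lower, at -1.99 and -1.83 (adjusted p = 0.00109 and 0.00185). The median of the 7 was 1.49, against 0.19 over all genes tested. Over all genes 35.6% were higher and 24.6% lower, so 3 and 2 of 7 lie near those shares. Each direction held a receptor and at least 1 ligand.

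WNT and TCF target genes of the crypt were higher in crypt-like than in absorptive-like cells for 10 of 11 tested of 15 listed, with a median of 4.02. They included Axin2, a negative regulator of the pathway (3.98, adjusted p = 8.53e-05), Cd44, a surface adhesion receptor (5.80, adjusted p = 0.000297), and Rnf43, a ligase that removes WNT receptors (1.67, adjusted p = 0.000521). Over all genes tested in this contrast, 35.6% were higher. Ascl2, Axin2, Lgr5 and Sox9 of this list were also used to name the crypt-like class. Between crypt-like cells with and without Lgr5, 10 of 10 tested were higher in cells with it, with a median of 1.30 against 0.01 over all genes. The share of all genes higher there was 9.42%.

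Of 18 partners of Eph forward signalling, 4 were higher and 6 lower in crypt-like than in absorptive-like cells, of 16 tested, where 35.6% and 24.6% of all genes were called, and the median was 0.01 against 0.19 over all genes. Tiam1, an exchange factor for Rac, was higher by 5.23 (adjusted p = 0.000552) and Kalrn, another exchange factor, differed by -3.26 (adjusted p = 0.000359). The kinase Src was lower, at -1.61 (adjusted p = 0.000176). Among 8 partners of ephrin-B reverse signalling, 1 was higher and 2 lower of 6 tested, Dvl2 (0.74, adjusted p = 0.0285), Sdcbp (-0.63, adjusted p = 0.0153) and Rgs3 (-1.24, adjusted p = 0.00468), and the median was -0.03. With so few genes tested, these counts lie near the shares over all genes. Of 6 genes of shedding and adhesion, the protease gene Rhbdl2 was the only one of 4 tested to pass, at -1.23 (adjusted p = 0.0328), and the median was -0.22.

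Across 60 units of library and class with at least 20 cells, the genes with the most similar levels were found by Pearson's r of log2(CPM + 5). For Ephb2 they were Plch2, Kcne3 and Plch1 (r = 0.887, 0.879 and 0.872), and for Ephb3 Zfp697, Snhg18 and Lrfn4 (0.855, 0.824 and 0.817). Ephb4 was most like Tspan12, Nr2f2 and Nfib (0.923, 0.902 and 0.891). Efnb1 was most like Erbb2, Il17rc and Atp9a (0.906, 0.877 and 0.877), and Efnb2 most like Bcar1, Nectin2 and C77080 (0.889, 0.884 and 0.868). For Ephb6, with 36 UMIs in these units, r did not exceed 0.516 (Hoxa13). Among the members, Efnb1 and Efnb2 had the highest r (0.796), followed by Ephb4 with Efnb2 (0.631), and Ephb2 with Ephb3 had 0.610. Units share libraries and depth, and these values are descriptions.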

How the data were processed

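The data are 5 single-cell libraries of mouse intestine, 1 per segment. The deposited matrices hold counts of UMIs per gene and cell barcode, with no normalization, and were used as deposited. Cell Ranger 4.0.0, Seurat and mm10 are listed in the submitters' processing notes, and per the file headers the matrices were written by Cell Ranger 7.2.0, so the version behind the counts is not settled. No file that assigns cells to types was used.

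A barcode was kept from 300 genes upward if mitochondrial UMIs made up no more than 20%. The 333 cells with the highest Scrublet scores within their libraries were removed as doublets. Their number was set beforehand from an expected 0.8% per 1000 barcodes. Cells were clustered with scanpy 1.11.5 (2000 variable genes, 30 components, 15 neighbours, Leiden resolution 1) without Eph and ephrin genes. Clusters were named from 29 marker lists, where at least 3 markers were 1.5-fold above the other clusters and found in 10% of cells. Clusters outside this rule stayed unnamed. Stromal and endothelial cells were clustered again. Subclusters that passed no list of a finer type were called fibroblast-like in stroma and blood-like in endothelium by default. A stromal subcluster of 24 cells, led by immunoglobulin genes, was left unnamed.

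UMIs were summed per library and class with at least 10 cells. Classes were compared with edgeR 4.0.16 in R 4.3.3 (quasi-likelihood test, TMM, filter on low counts, library as a term, Benjamini-Hochberg adjustment over all genes tested, threshold 0.05). DESeq2 1.42.0, other size factors and filters, other clusterings and leaving out each library were alternatives. The splits into absorptive-like and goblet-like cells were listed as alternatives, and their own DESeq2 and left-out-library fits were added after seeing the data. Per-library totals ran from 41953568 to 65546664 UMIs. In simulated counts, 79% of 2-fold and 96% of 4-fold changes were recovered for crypt-like against differentiated cells. In every contrast the simulation used a fixed dispersion and the same change in each segment. It left out the spread between segments, so recovery in the real data may be lower.

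The members and gene lists were chosen with earlier results of these data known. Genes named are the members, genes of the 5 lists, and for each member the 3 genes of highest Pearson's r over units of library and class with at least 20 cells, among genes with at least 200 UMIs there.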

Additional observations from a re-analysis of the deposited data

Results flagged for a closer look

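For 4 genes the difference between crypt-like and differentiated cells was not the same in large and small intestine, by edgeR's test of the interaction. The log2 difference in colon and rectum minus that in duodenum, jejunum and ileum was -2.22 for Ephb2, -2.33 for Ephb3, -2.21 for Ephb4 and 0.99 for Efnb2. The share of goblet-like cells among the kept differentiated cells was 5.75% to 29.3% in the 3 small intestinal libraries and 55.4% and 76.5% in the large intestinal ones. The filters removed mostly absorptive-like cells, so these shares depend on them. Crypt stem markers in crypt-like cells summed to 3078, 3874 and 5362 CPM in the small intestinal libraries and 931 and 601 CPM in the large intestinal ones. That sum includes Olfm4 and Smoc2, leading genes of the small intestinal crypt-like cluster, and was not split by gene. Against absorptive-like cells alone the values were -1.46, -2.11, -1.83 and -0.28, none past the threshold. Rectal absorptive-like cells had 0 CPM of the 3 receptors, so in large intestine the receptor values rest mainly on colon.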

How the results depend on the processing

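Over 456 refits of single members, 364 kept direction and side of the threshold, 48 lost the call, 37 gained one and 7 changed sign. The sign changes were Ephb3 in crypt-like against differentiated cells with goblet-like cells alone (-0.15), Efnb2 in stroma at 10% mitochondrial UMIs (0.23), Ephb2 with Lgr5 at 10% (-0.015), and Efnb2 in the large against small intestine with absorptive-like cells alone (-0.28) and thinned to 2000 UMIs (-0.089). Against goblet-like cells, leaving out each library gave -0.28 to 0.15 for Ephb3 and -0.18 to 0.016 for Efnb1. The cause was not tested.

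Counts of genes past the threshold moved as follows. Crypt-like against differentiated cells gave 5499 genes, 3176 at 10% mitochondrial UMIs, 2922 when thinned and 477 to 6931 with each library left out. The Lgr5 contrast gave 2122, 1043 with DESeq2, 545 at 10%, 637 at Leiden resolution 2, 966 with each library clustered on its own and 973 to 1889 with each library left out. The interaction gave 2851, 140 at 10%, 1663 with every barcode, 537 with libraries clustered alone, 1033 with absorptive-like and 351 with goblet-like cells alone, 883 when thinned and 250 to 3746 with each library left out. Endothelium against stroma gave 1491 and, without the filter, 3256. Crypt-like against goblet-like cells gave 4530, and 2615 to 4951 with each library left out. The 10% limit left 4 libraries in the crypt contrasts. The class contrasts are paired by library. For endothelium against stroma the simulated recovery was 22% of 2-fold and 58% of 4-fold changes, so small differences there may be missed.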
